A study of Mus musculus with 1298 samples.

Results

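The cells described here are the neurons among Pax7-lineage cells of mouse embryos at E12.5. The members were selected on measured expression, by gene panels. Each of the 3916 cells in the deposited tables received a score for each of 9 panels of 4 genes, the mean of log2(1 + counts per 10000) over the genes of the panel. A cell at E12.5 counted as a neuron when the panel *Tubb3*, *Elavl3*, *Dcx* and *Rtn1* gave its highest score and that score was at least 0.7. The rule took 38.4% of the 1331 cells at E12.5, which is 13.0% of all 3916 cells. On 10×, which counts unique molecules (UMIs) at 3′ ends in droplets, it took 40.5% of 1017 cells, and on Smart-seq2, which reads whole transcripts of cells sorted into plates, 99 cells or 31.5%. All embryos carried Pax7CreER and R26R-stop-EYFP, a reporter that stays on in every descendant of a cell in which the Pax7-driven recombinase was active. Tamoxifen was given at E9.5 (75 µg per g), and *YFP*+ cells were sorted at E12.5, E14.5 or E16.5 from embryos whose head, limbs and viscera had been removed. The strain background is not given in the labels. Embryos were pooled and carry no animal labels, so 1 platform at 1 day is 1 sample, called a pool below. A Smart-seq2 pool joins several plates and sequencing batches. No pool has a replicate, so p-values rest on how far the platforms, or batches summed apart, disagree about a difference, which may be technical.

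Pax7 marks dorsal progenitors of the neural tube and neural crest as well as the somite, so the same recombinase labels a neural lineage beside muscle, fat and dermis. In the dorsal spinal cord, progenitors in stacked domains leave the cell cycle under proneural factors and Notch signalling and become classes of interneurons. Each class is known by its homeodomain factors. *Lhx1*, *Lhx5* and *Pax2* belong to classes that mostly become inhibitory, and *Tlx3*, *Lmx1b* and *Pou4f1* to classes that mostly become excitatory. Many of these neurons are commissural and send an axon across the midline, a step in which the receptors *Robo3* and *Dcc* take part.

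The exact binomial 95% interval of the neuron share was 37.5 to 43.6% on 10× and 26.4 to 36.98% on Smart-seq2. These intervals cover counting error only. The 10× share was 37.04% after each cell was thinned to 1000 UMIs and 41.05% of the same 899 cells before. On Smart-seq2 the share rested on the plate. Plate 1 of sequencing batch 1 held 33 neurons among 64 cells (51.6%) and plate 2 of batch 2 held 56 among 83 (67.5%), whereas the 5 plates of batch 5 held 10 (5.99%). Of those 5 plates, 3 held no neuron, and for these a count of 0 allows a share of up to 9.68%, 8.11% and 14.3%, taken as 3 over the cells of the plate. The exact 95% intervals of these plates reach 11.2%, 9.49% and 16.1%. The first and the last of the 3 carry the same plate batch in the labels and may not be separate. At E14.5 the same rule took 98 of 968 cells on 10× (10.1%) and 37.7% of the cells on Smart-seq2, and at E16.5 it took 3 and 8 cells. The day order of the share therefore differed between the platforms and no direction over time is drawn from it.

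**Figure D1:**
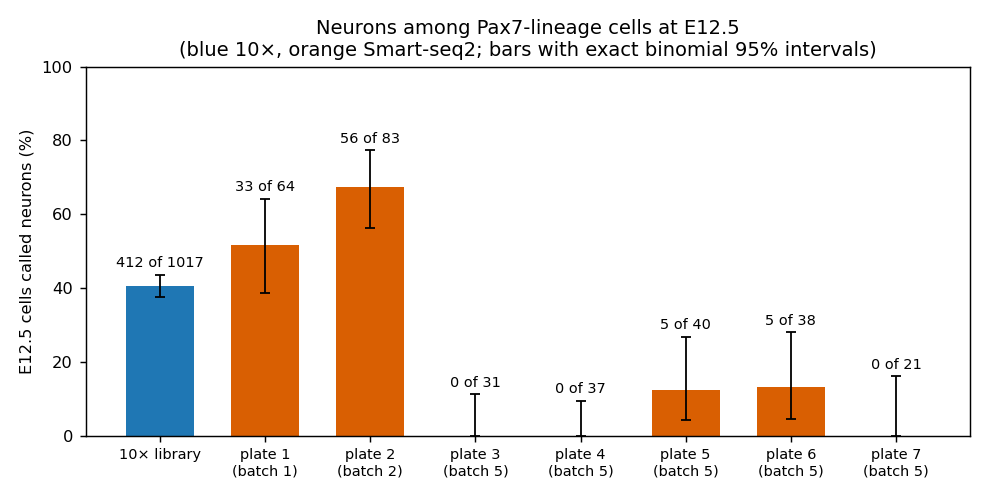
Share of E12.5 cells called neurons (y axis, percent) in the 10× library and on each of the 7 Smart-seq2 plates, with exact binomial 95% intervals and the cell numbers above the bars. Plates 1 and 2 lie at 51.6% and 67.5%, and the 5 plates of batch 5 lie between 0 and 13.2%.

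Depth differed between the neurons and the cells around them. On 10× a neuron held a median of 3074.5 UMIs on 1526 genes, against 1783 UMIs on 927 genes in the other E12.5 cells. On Smart-seq2 the medians were 1258990 and 254159 expected counts, but most of the other cells came from the shallow batch 5, and within each batch the neurons held fewer counts. The medians were 1827650 in neurons against 2094330 in the other cells of batch 1, 1119000 against 1463050 in batch 2 and 134518 against 219159 in batch 5. The median neuron score was 2.82 on 10× and 3.31 on Smart-seq2. The lowest scores inside the threshold were 0.711, 0.720 and 0.747 on 10×, and the 3 cells just outside it stood at 0.684, 0.664 and 0.663. On Smart-seq2 the lowest member stood at 0.992 and no cell lay outside with the neuron panel as its highest. Another panel also reached 0.7 in 73.3% of the neurons on 10×, where the mesenchyme panel was next in 34.7% and the progenitor and glia panel in as many, and in 30 of 99 on Smart-seq2. The mesenchyme panel holds *Zfhx3*, which these neurons themselves carried at the levels given in the day comparison below. No doublets were called or removed, and neither the part of doublets nor that of *Zfhx3* in these second scores was tested. Each pair of 10× libraries shared 1 cell barcode, and no member exceeded 8% mitochondrial counts.

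The panel genes and the genes of neuronal cytoskeleton and vesicles stood out in these cells on both platforms. Since the rule was applied to these same cells, the contrast with the other E12.5 cells is a description and carries no test. Levels are summed counts scaled to a common total (CPM), and log2 ratios are of CPM + 1. *Tubb3*, the neuronal beta-tubulin, was at 1195 CPM in neurons and 57.01 CPM in the other cells on 10×, and at 2781 and 58.5 CPM on Smart-seq2. It had a UMI in 91.7% of 10× neurons and in 7.17% of the cells of the mesenchyme class, which should lack it. All 31 genes of the fixed list of cytoskeleton and vesicle genes were at least 2-fold over the other cells on both platforms, as were 1300 of the 15147 genes present in both tables (8.58%). The median log2 ratio of that list was 3.18 on 10× and 3.39 on Smart-seq2, against 0.28 and 0.07 over the 4526 genes with at least 50 counts in neurons on each platform.

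By the size of the smaller of the 2 ratios, the leading genes were *Lhx1*, *Sez6l2*, *Lhx5*, *Svop*, *Rtn1*, *Fam57b*, *Cntn2*, *Tubb3*, *Kif5a*, *Robo3*, *Thsd7a*, *Pax2*, *Nrxn3*, *Pou4f1*, *Stmn3*, *Elavl3*, *Stmn2*, *Elmod1*, *Actl6b* and *Asic1*. Among them are class factors, axon guidance and adhesion molecules, motor and microtubule proteins, and synaptic or channel proteins, most of them outside the panel. *Lhx1*, a LIM homeodomain factor, was at 349.6 CPM in neurons (exact Poisson 95% interval 320.7 to 380.4) against 11.7 in the other cells on 10×, with log2 ratios of 4.79 on 10× and 8.03 on Smart-seq2. *Lhx5*, its close relative, was at 176.4 and 239.8 CPM in neurons on the 2 platforms, with log2 ratios of 4.55 and 6.84. The adhesion molecule *Cntn2*, carried by early commissural axons, was at 127.8 and 496.02 CPM and had ratios of 4.40 and 7.90. All 20 genes were higher in neurons on each platform, and the smaller ratio ranged down to 3.90 for *Asic1*, an acid-sensing channel.

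**Figure D2:**
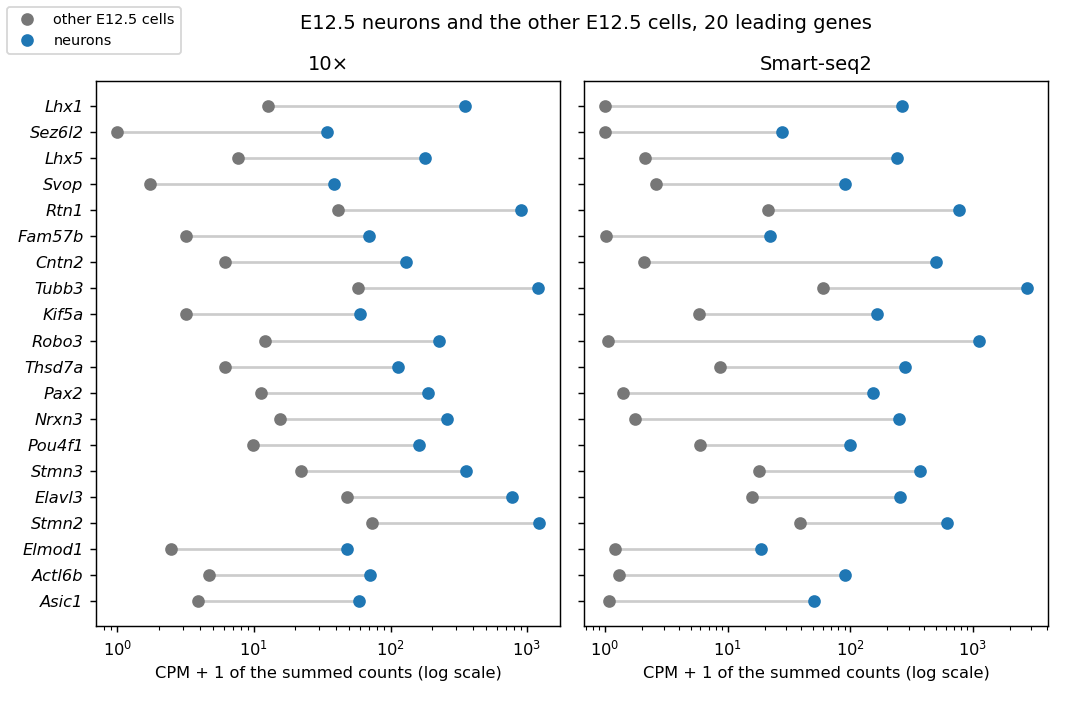
Levels of the 20 leading genes (CPM + 1 of the summed counts, log scale) in E12.5 neurons and in the other E12.5 cells, on 10× at left and Smart-seq2 at right. Each neuron point lies to the right of the point of the other cells, and Lhx1 and Sez6l2 lead the order.

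Because proneural factors of the basic helix-loop-helix family bind E-boxes, the promoters of these leading genes were searched for the E-box CAGCTG, which reads the same on both strands. RefSeq promoters (GRCm38.p6, 250 bases before to 50 after each start) matched 13 of the 20 genes, and 4 of the 13 (30.8%) held the hexamer in at least 1 promoter, against 5355 of all 32851 promoters (16.3%). Genes with several starts had more chances to hold it. The promoters of *Elavl3* (chr9:22051974-22052273, minus strand, match at -43 from the start), *Pou4f1* (chr14:104467950-104468249, minus strand, match at -118) and *Pax2* (chr19:44755502-44755801, plus strand, match at -64) are printed as examples of a panel gene, an excitatory-side and an inhibitory-side factor, in lower case from 5′ to 3′ with the hexamer in capitals.
Elavl3: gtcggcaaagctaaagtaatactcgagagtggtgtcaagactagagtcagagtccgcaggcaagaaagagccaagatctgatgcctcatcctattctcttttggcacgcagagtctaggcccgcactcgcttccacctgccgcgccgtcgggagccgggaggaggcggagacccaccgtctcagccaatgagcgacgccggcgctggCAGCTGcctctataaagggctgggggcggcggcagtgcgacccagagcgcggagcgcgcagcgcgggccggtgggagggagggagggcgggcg
Pou4f1: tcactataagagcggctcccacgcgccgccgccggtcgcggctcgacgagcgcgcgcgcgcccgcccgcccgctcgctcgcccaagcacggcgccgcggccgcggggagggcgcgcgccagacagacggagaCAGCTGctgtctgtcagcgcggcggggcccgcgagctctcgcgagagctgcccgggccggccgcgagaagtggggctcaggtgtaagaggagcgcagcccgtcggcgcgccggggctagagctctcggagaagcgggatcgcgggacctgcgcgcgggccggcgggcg
Pax2: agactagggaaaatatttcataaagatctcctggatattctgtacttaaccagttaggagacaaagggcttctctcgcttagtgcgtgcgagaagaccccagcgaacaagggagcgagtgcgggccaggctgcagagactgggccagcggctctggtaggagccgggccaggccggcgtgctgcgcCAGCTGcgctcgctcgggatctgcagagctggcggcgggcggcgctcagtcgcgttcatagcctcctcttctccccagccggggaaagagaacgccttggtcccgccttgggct
The fourth gene was *Thsd7a*, with matches at -45 and 3. A match describes these letters only and says nothing of binding.

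Markers of mesenchyme and muscle were low in the neurons, and their level differed between the platforms. All 12 mesenchyme and muscle markers were at least 2-fold under the other cells on both platforms, as were 7.78% of all genes. Their summed level was 307.5 CPM in 10× neurons against 2421 in the other cells, and 13.9 against 5416 CPM on Smart-seq2. On 10× the collagen gene *Col3a1* was at 75.9 CPM with a UMI in 15.3% of neurons, and on Smart-seq2 it was at 0.0553 CPM. Free RNA can give such UMIs in droplets, and its part in the low 10× levels reported below was not tested. The crest marker *Sox10* was at 4.54 CPM on 10× and 0 on Smart-seq2. The 6 crest and glia markers in both tables summed to 53.2 CPM on 10× and 114.7 CPM on Smart-seq2, against 70.9 and 140.6 CPM in the other cells. The 7 endothelial and immune markers in both tables summed to 10.4 CPM on 10× and 250.9 CPM on Smart-seq2, against 13.9 and 172.1 CPM in the other cells. Nearly all of the Smart-seq2 sum was *Pecam1*, given under the other observations below. The endothelial marker *Cdh5* was at 0 in all E12.5 neurons, which on 10× allows up to 1.95 CPM. By the mesenchyme and muscle markers and the cytoskeletal genes above, the cells carried neuronal RNA and little RNA of mesenchyme or muscle. The rule took only cells whose mesenchyme and muscle panels scored below the neuron panel, so these low levels follow in part from it. They describe the chosen cells and are no separate support for their identity.

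Dorsal class factors were high in the neurons, and 14 of 19 members in both tables were at least 2-fold over the other cells on both platforms, as were 8.58% of all genes. Their summed level was 1368 CPM on 10× and 1225 CPM on Smart-seq2, against 95.7 and 16.9 CPM in the other cells. In Smart-seq2 batches 1, 2 and 5 the sum was 792.0, 1628 and 1352 CPM. *Lhx1* had a UMI in 52.4% of neurons on 10× (and in 2.39% of mesenchyme-class cells) and at least 10 CPM in 51 of 99 cells on Smart-seq2, the limit used for a positive cell on that platform. *Pax2* was found in 39.6% of 10× and 47 of 99 Smart-seq2 neurons, and *Lhx5* in 40.3% and 57. *Pou4f1*, a factor of dorsal excitatory and of sensory neurons, was found in 30.3% and 23, and *Lbx1*, which divides later-dorsal from dorsal-most classes, in 29.1% and 29. Each of these 5 factors was thus found in more than 20% of the neurons on both platforms. On 10× *Barhl2* was found in 2.91%, *Lhx9* in 2.43%, *Lhx2* in 4.37%, *Lmx1b* in 7.77% and *Isl1* in 5.58% of neurons.

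The platforms differed for several of these factors. *Tlx3*, which holds the excitatory fate, was at 143.997 CPM on 10× and 2.05 CPM on Smart-seq2, and *Isl1* was at 33.1 and 0 CPM. *Pax8*, a relative of *Pax2*, went the other way with 67.5 and 271.3 CPM. 10× counts 3′ ends and Smart-seq2 whole transcripts, and the platforms also sampled different cells, which cannot be told apart here.

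Markers of other neuron types summed to less in the neurons than in the other cells. The 7 ventral and motor neuron markers in both tables summed to 221.2 CPM on 10× and 127.4 CPM on Smart-seq2, against 261.6 and 241.3 CPM in the other cells. By Smart-seq2 batch the ventral sum in neurons was 210.6 CPM in batch 1, 49.9 in batch 2 and 91.4 in batch 5. Of these none was at least 2-fold over the other cells on both platforms, and the motor neuron genes *Chat* and *Slc18a3* had no UMI in the neurons on 10×. *En1*, a marker of a ventral interneuron class, was at 20.8 CPM in neurons and 79.7 CPM in the other cells. The paper cites tracing in which *En1*-expressing progenitors also gave muscle, brown fat and dermis. The *En1* level of the other cells is therefore no measure of neuron type, and the lower sum does not mean that ventral RNA was absent. Among sensory and autonomic ganglion markers, *Prph* was found in 2 neurons on 10× and *Avil* in none. The 9 ganglion markers in both tables summed to 40.9 CPM on 10× and 10.8 CPM on Smart-seq2, below the 114.01 and 106.6 CPM of the other cells.

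Transmitter genes of both signs were present. *Gad2*, an enzyme of GABA synthesis, was at 108.97 CPM on 10× and 278.9 on Smart-seq2, and *Slc6a5*, the glycine transporter of inhibitory neurons, at 62.3 and 218.1. *Slc17a6*, the vesicular glutamate transporter, was at 23.4 and 132.01 CPM. In share of cells *Gad2* was found in 29.1% of 10× neurons and *Slc17a6* in 8.01%, with 2.39% and 0.683% in the mesenchyme class. Of the peptides, *Npy* was at 223.1 and 140.1 CPM and *Sst* at 88.2 and 60.3 CPM. Of the 15 peptide genes that both tables hold, 11 stayed under 20 CPM on both platforms.

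To see whether the class factors and the transmitter genes went together, neurons were divided by the factors they held. A cell with a count of *Pax2*, *Lhx1*, *Lhx5*, *Gbx1* or *Pax8* and none of *Tlx3*, *Tlx1*, *Lmx1b*, *Drgx* or *Pou4f1*, as far as a table held them, was put on the inhibitory side, and the reverse on the excitatory side. On 10×, 38.3% of the neurons fell on the inhibitory side, 48 cells (11.7%) on the excitatory side, 32.8% on both and 17.2% on neither. The cells with both had a median of 5163 UMIs and those with neither 1405, against 2774.5 and 2930.5 on the inhibitory and excitatory side. At 1000 UMIs per cell, 39.6% fell on the inhibitory side, 13.0% on the excitatory side and 10.03% on both. On Smart-seq2 any count placed 50 of 99 cells on the inhibitory side, 3 on the excitatory side and 43 on both. With at least 10 CPM of a factor asked for, a rule added after seeing the data, the numbers were 58, 8 and 19.

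Genes of inhibitory transmission were higher on the inhibitory side, by an amount that on 10× depended on how the cells were divided. The split used these same cells, so the values are a description. Leaving aside the factors that define the sides, the genes with the largest ratio on both platforms were *Sst*, *Rpp25*, *Grik3*, *Gad2* and *Gbx2*. *Sst* was at 128.7 CPM on the inhibitory side (Poisson 95% interval 99.1 to 164.4) and had no UMI on the excitatory side (upper bound 23.4 CPM) on 10×. On Smart-seq2 it was at 80.02 CPM and 0. *Gad2* was at 172.97 CPM (138.4 to 213.6) on the inhibitory side and 6.34 CPM (0.161 to 35.3) on the excitatory side of 10×, and at 344.7 and 0.228 CPM on Smart-seq2. When 10× cells were thinned to equal depth before the split, the log2 ratio went from 7.02 to 0.88 for *Sst*, from 4.57 to 1.57 for *Gad2* and from 5.14 to 0.18 for *Gad1*, the other enzyme of GABA synthesis. With *Pax2* against *Tlx3* alone the 3 ratios were 1.15, 2.28 and 1.48. *Slc6a5* was at 82.5 and 6.34 CPM on 10×, and its log2 ratio was -0.068 when cells were thinned before the split. *Npy*, an inhibitory-class peptide, was at 335.9 and 44.4 CPM on 10×. The thinned split placed cells by thinned counts but took levels from full counts. Defining factors fell with it on 10×, *Lhx1* from 8.98 to 1.91 and *Pax2* from 8.13 to 1.01. On Smart-seq2 the thinned ratios were 8.13 for *Slc6a5*, 6.77 for *Sst* and 8.87 for *Gad2*, with 6 cells on the excitatory side.

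On the excitatory side *Slc17a6* was at 44.4 CPM (17.8 to 91.5) against 14.1 (5.66 to 29.01) on the inhibitory side of 10×. The intervals overlap, and on Smart-seq2 the order turned with the rule for a positive cell. The peptide gene *Tac1* was at 69.8 against 4.02 CPM and *Isl1* at 114.2 against 18.1 CPM on 10×. On the excitatory side these rest on 11 and 18 UMIs, in 8.33% and 10.4% of its cells. Neither gene had a count on either side of Smart-seq2. With *Pax2* against *Tlx3* alone the 10× log2 ratio went from -3.82 to -0.56 for *Tac1* and from -2.59 to -0.36 for *Isl1*. *Sncg*, a synuclein of sensory neurons, was at 158.5 against 8.05 CPM on 10×. Beside *Pou4f1*, which defines the side, the genes that led on both platforms were *S100a10*, *Sncg*, *Ccnb2*, *Insig1*, *Nhp2*, *Zeb1*, *Pnrc1*, *Eno1* and *Sox9*, of which *Ccnb2* and *Sox9* are genes of dividing cells and progenitors. The Smart-seq2 side of this list rests on 3 cells, and 3 of its genes turned under another split. On Smart-seq2 *Sncg* was at a log2 ratio of 0.18 with the 10 CPM limit and 1.44 with *Pax2* against *Tlx3*, which put it on the inhibitory side, and with that pair *S100a10* was at 0.59 and *Nhp2* at 0.94. *Nhp2* was also at 0.038 on thinned 10× cells.

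**Figure D3:**
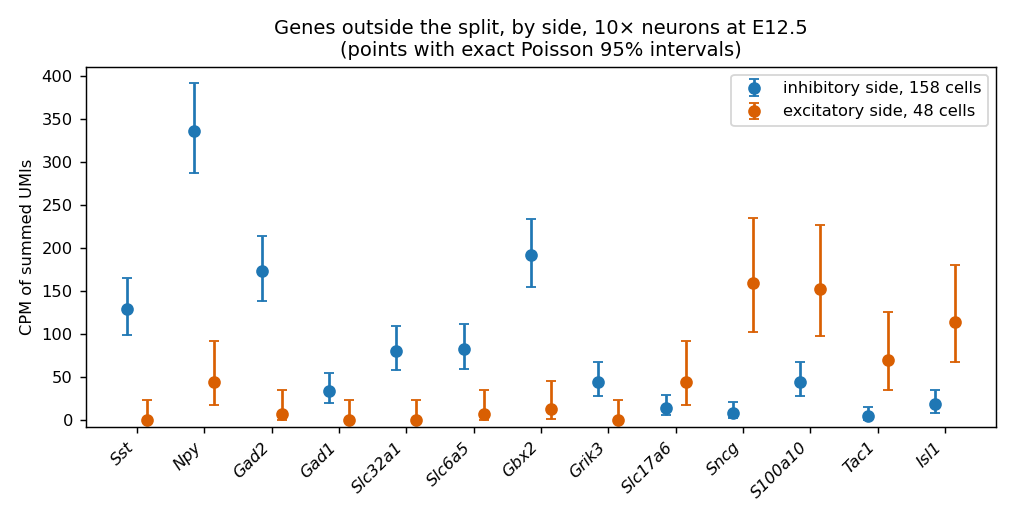
Level (CPM of summed UMIs, with exact Poisson 95% intervals) of 13 genes that do not define the split in 10× neurons of the inhibitory side (blue) and excitatory side (orange) at E12.5. Sst, Npy, Gad2 and Gbx2 lie higher on the inhibitory side, and Sncg, S100a10, Tac1 and Isl1 on the excitatory side, with intervals that do not overlap under this split. The intervals cover counting error only, not the spread between cells.

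A part of the commissural guidance genes was high in the neurons. Of 38 measured, 17 were at least 2-fold over the other cells on both platforms and 3 at least 2-fold under. Over all genes in both tables these shares were 8.58% and 7.78%. The median log2 ratio of the list was 1.00 on 10× and 0.94 on Smart-seq2. *Robo3*, the receptor that lets commissural axons reach the midline, was at 223.8 CPM on 10×, with a UMI in 40.3% of neurons and 0.683% of mesenchyme-class cells. On Smart-seq2 it was at 308.1 CPM in batch 1, 1874 in batch 2 and 1599 in batch 5. *Dcc*, the netrin receptor, was at 20.8 CPM on 10× and 491.7 on Smart-seq2, with 3.65 and 13.8 in the other cells. *Robo1*, *Robo2* and *Slit2* were at 129.7, 62.9 and 50.6 CPM on 10×.

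The neurons at E12.5 also held RNA of the steps before differentiation. *Nhlh2*, a factor of newly born neurons, was at 254.9 CPM on 10× and 471.1 on Smart-seq2 and had a UMI in 50.97% of 10× neurons. The Notch ligands *Dll1* and *Dll3* were at 55.1 and 70.7 CPM on 10×. *Neurog2*, a proneural factor, was found in 11.7% of 10× neurons and *Ptf1a*, the factor of inhibitory dorsal progenitors, in 5.58%. Cell cycle genes were present but none of 23 was 2-fold over the other cells. *Top2a*, a topoisomerase of dividing cells, was at 179.02 CPM with a UMI in 29.9% of neurons, against 590.5 CPM in the cells of the progenitor and glia class.

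On Smart-seq2 the cell cycle genes separated the batches. Their summed level was 5913 CPM in the neurons of batch 1, 616 in batch 2 and 1243 in batch 5, and on 10× it was 1552 CPM. Batch 1 was also higher than batch 2 in progenitor markers, at 2204 against 458.1 CPM, and lower in guidance genes, at 2895 against 6983 CPM, and in synapse and channel genes, at 1809 against 4099 CPM. Single genes of these batches differed likewise. *Hes6*, a factor of committed precursors, was at 1183 CPM in batch 1 and 193.2 in batch 2, whereas *Gad2* was at 106.8 and 446.9 CPM. The labels give batches 1 and 2 as 1 plate each, so batch, plate and embryo pool cannot be told apart, and calls by day that were lost without batch 1 are named as such below.

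**Figure D4:**
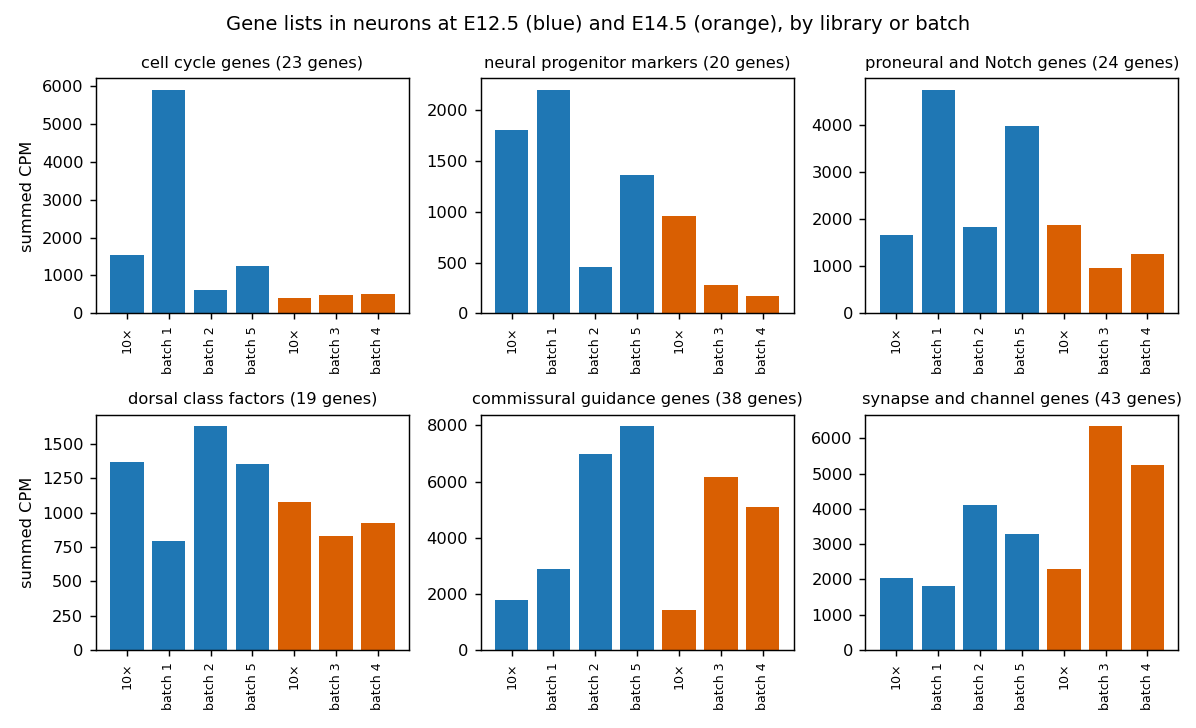
Summed level (CPM, over the genes of each list found in both tables) of 6 gene lists in neurons at E12.5 (blue) and E14.5 (orange), by 10× library or Smart-seq2 sequencing batch. Batch 1 stands highest in cell cycle genes at 5913 CPM, and the synapse and channel genes are highest in both E14.5 batches.

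Neurons at E12.5 were then compared with those at E14.5, where the same rule had taken 98 cells on 10× and 37.7% of the cells on Smart-seq2. The rule did not use the day, and the 36 genes of the panels are given as values only. Counts were summed over the neurons of each platform and day and the 4 sums compared in edgeR (quasi-likelihood test, platform as a covariate, Benjamini-Hochberg). Of 13516 genes tested, 700 (5.18%) differed at an adjusted p under 0.05, with 2.32% higher at E14.5 and 2.86% lower. Of the 700, 585 had the same sign on both platforms. The fit has 1 residual degree of freedom, and the share of genes called depended on what was summed. Without the E12.5 neurons of batch 1 it was 0.772% higher and 0.659% lower. With 1 sum per Smart-seq2 batch it was 1.18% and 0.711%, and with only batches of at least 30 neurons 5 genes were higher and 1 lower, and of the 71 genes of the lists and rankings below that passed on the 4 sums 1, *Nfib*, still passed. The verbs below follow the 4 sums.

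Of the dorsal class factors 3 of 17 tested were lower at E14.5 and none was higher, and without batch 1 the count was 2 lower and 1 higher. *Lhx1* was at 349.6 CPM on 10× and 138.96, 375.4 and 329.8 CPM in batches 1, 2 and 5 at E12.5, and at 31.3 CPM on 10× and 58.02 and 68.2 in batches 3 and 4 at E14.5. The days did not overlap, and *Lhx1* fell by 2.61 on the log2 scale (SE 0.44, adjusted p = 0.0381, edgeR). Its relative *Lhx5* went from 176.4 to 59.5 CPM on 10× and from 239.8 to 135.2 on Smart-seq2 (adjusted p = 0.13, edgeR). *Barhl2* and *Lhx9*, factors of the dorsal-most commissural class, also fell, but *Lhx9* was at 204.7 CPM in batch 1 against 9.99 in batch 2 and 7.13 on 10×, and it did not pass without batch 1 (adjusted p = 0.0530, edgeR). *Pax2*, *Tlx3* and *Pou4f1* did not pass the test, with adjusted p of 0.781, 0.112 and 0.981 in edgeR.

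Of the factors known to follow birth time in spinal neurons, 3 of 14 tested were higher at E14.5 and 2 lower, and without batch 1 2 were higher and 1 lower. *Nfib*, a nuclear factor I protein of later-born neurons, was at 183.6 CPM on 10× and at 82.5, 68.4 and 8.15 CPM in the 3 batches at E12.5. At E14.5 it was at 1277, 772 and 767 CPM. *Nfib* rose by 3.06 on the log2 scale (SE 0.33, adjusted p = 0.0227, edgeR) and every E14.5 value lay above every E12.5 value. *Neurod6*, found in dorsal inhibitory neurons, was at 47.999 CPM and 4.52, 160.9 and 0 CPM at E12.5 and at 388.02, 328.3 and 637 at E14.5, and rose by 2.67 (SE 0.33, adjusted p = 0.023, edgeR). Its 2 larger batches at E12.5 differed from each other by a larger ratio than the days did on 10×. *Neurod6* did not pass without batch 1 (adjusted p = 0.0717, edgeR) or with 1 sum per batch (adjusted p = 0.149). *Neurod2* was at 40.9 CPM on 10× and 6.46, 11.3 and 0 CPM in batches 1, 2 and 5 at E12.5, and at 184.6, 40.4 and 41.7 CPM at E14.5. It rose by 2.16 (SE 0.34, adjusted p = 0.0317, edgeR), which did not pass without batch 1 (adjusted p = 0.0511).

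*Onecut1*, a factor of early-born neurons, fell. It was at 1.95 CPM on 10× and 60.2, 29.1 and 30.1 CPM in the batches at E12.5. At E14.5 it had no UMI on 10×, which allows up to 9.39 CPM, and stood at 0.0299 and 1.18 CPM in the batches. Its change thus rests on Smart-seq2. *Zfhx4* was at 161.5 CPM on 10× and 186.6, 468.9 and 413.2 CPM in batches 1, 2 and 5 at E12.5, and at 53.2, 69.99 and 93.9 CPM at E14.5. It fell by 1.91 (SE 0.34, adjusted p = 0.041, edgeR), and without batch 1 it did not pass (adjusted p = 0.0555), with a value of -2.22. Its relative *Zfhx3*, a panel gene with no test, went from 595 to 59.5 CPM on 10× and from 255.4 to 25.95 on Smart-seq2. *Nfix* went from 21.4 to 269.1 CPM and from 0.490 to 156.9 with an adjusted p of 0.0592 in edgeR.

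Of 23 proneural and Notch genes tested, a list that shares *Neurod2* and *Neurod6* with the factors above, 8 were lower at E14.5 and 2 higher, and without batch 1 the count was 6 lower and 0 higher. *Notch1*, the receptor, was at 105.7 CPM on 10× and 305.1, 46.9999 and 313.5 CPM in the batches at E12.5, and at 6.26, 9.02 and 2.49 CPM at E14.5. It fell by 4.69 on the log2 scale (SE 0.43, adjusted p = 0.0227, edgeR). The ligand *Dll1* fell by 3.13 (SE 0.46, adjusted p = 0.0274, edgeR). It was at 55.1 CPM on 10× and 304.3, 172.3 and 549.9 CPM in batches 1, 2 and 5 at E12.5, and at 12.52, 17.7 and 30.98 CPM at E14.5. Both genes passed without batch 1 and with 1 sum per batch, but not with only batches of at least 30 neurons, where *Notch1* had an adjusted p of 0.104 and *Dll1* of 0.0559 in edgeR. *Ptf1a* was at 16.2 CPM on 10× and 38.5 on Smart-seq2 at E12.5 and had no count in the neurons of either platform at E14.5. *Atoh1* and *Neurog1* rested on a few cells of batch 1, and on 10× *Atoh1* was at 1.30 CPM at E12.5 and 15.6 at E14.5.

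Of 19 progenitor markers tested, among them *Hes1*, *Hes5* and *Notch1* of the list above, 10 were lower at E14.5 and 0 higher, and 6 were lower without batch 1. *Nes*, an intermediate filament of neural progenitors, was at 75.2 CPM on 10× and 255.5, 58.1 and 142.95 CPM in batches 1, 2 and 5 at E12.5, and at 18.8, 21.2 and 12.52 CPM at E14.5. It fell by 2.84 (SE 0.44, adjusted p = 0.0315, edgeR). Without batch 1 the value was -1.85 and did not pass (adjusted p = 0.0717). Of 23 cell cycle genes 14 were lower and 0 higher, with a list median of -4.30 on the log2 scale. Without batch 1 only 3 were lower and the median was -0.93, while the median of all genes was -0.02 and -0.03. *Top2a* went from 179.02 to 3.13 CPM on 10×, where 1 UMI remained, but in batches 2 and 5 it stood at 3.48 and 5.78 CPM at E12.5 against 1.23 and 1.21 CPM at E14.5. *Ccnd1*, a G1 cyclin, kept its call without batch 1. It was at 203.02 CPM on 10× and at 303.5, 27.1 and 332.3 CPM in the batches at E12.5, and at 21.9, 4.98 and 8.10 at E14.5.

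Of 43 synapse and channel genes tested 5 were higher at E14.5, namely *Syn2*, *Gria1*, *Grin3a*, *Glra2* and *Kcnj3*, and 0 were lower. The list median was 0.85 on the log2 scale and 37 of 43 values were positive, and without batch 1 *Syn2* and *Gria1* alone passed in edgeR. *Syn2*, a synaptic vesicle protein, was at 9.08 CPM on 10× and 0, 1.01 and 0 CPM in batches 1, 2 and 5 at E12.5, and at 15.6, 35.3 and 22.5 CPM at E14.5. It rose by 4.39 on the log2 scale (SE 0.58, adjusted p = 0.0234, edgeR), and the days did not overlap, though its 10× values rest on 14 and 5 UMIs. *Gria1*, an AMPA receptor subunit, was at 3.89 CPM on 10× and 0.545, 43.7 and 0 CPM in batches 1, 2 and 5 at E12.5, and at 43.8, 234.8 and 193.9 CPM at E14.5. It rose by 3.31 (SE 0.43, adjusted p = 0.023, edgeR) and did not pass with 1 sum per batch. *Grin3a* rested on Smart-seq2, since on 10× it was at 6.49 and 3.13 CPM.

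Of 38 guidance genes 2 were higher at E14.5 and 2 lower, where 2.32% and 2.86% of all genes tested were. Without batch 1 the count was 1 higher and 2 lower. *Nrp1*, a semaphorin receptor, was at 24.6 CPM on 10× and 25.8, 70.4 and 124.1 CPM in batches 1, 2 and 5 at E12.5, and at 106.4, 565 and 322.4 CPM at E14.5, and rose by 2.75 (SE 0.43, adjusted p = 0.032, edgeR). *Slit1* went from 7.78 to 28.2 CPM on 10× and from 33.03 to 179.9 on Smart-seq2 and rose by 2.26, which did not pass without batch 1 (adjusted p = 0.0707, edgeR). *Epha3*, an ephrin receptor, was at 107.7 CPM on 10× and 129.4, 309.8 and 249.5 CPM in batches 1, 2 and 5 at E12.5, and at 34.4, 7.70 and 31.8 CPM at E14.5. It fell by 3.01 (SE 0.42, adjusted p = 0.0264, edgeR) and *Boc*, a co-receptor of Shh, by 3.86, with 1 UMI at E14.5 on 10×. *Robo3* went from 223.8 to 84.5 CPM on 10× and from 1121 to 465.003 on Smart-seq2, which did not pass (adjusted p = 0.063, edgeR), and for *Robo2*, which went the other way from 62.9 to 181.5 and from 176.7 to 518.3 CPM, adjusted p was 0.0524.

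Of 31 cytoskeleton and vesicle genes 1 passed, *Tubb2a*, a beta-tubulin, which went from 208.9 to 604 CPM on 10× and from 574 to 2287 on Smart-seq2 and did not pass without batch 1 (adjusted p = 0.0807, edgeR). In edgeR 0 of 8 transmitter genes passed. Of 11 peptide genes 5 were higher at E14.5, namely *Pdyn*, *Penk*, *Cck*, *Grp* and *Npff*, and 1, *Cartpt*, was lower, whereas without batch 1 *Pdyn* and *Cck* were higher and *Cartpt* lower. *Grp*, the gastrin-releasing peptide, was at 3.24 CPM on 10× and 0 in all 3 batches at E12.5, and at 84.5, 24.4 and 16.51 CPM at E14.5, and its adjusted p without batch 1 was 0.0514 in edgeR. *Pdyn* was called from batch 3 alone, where it was at 82.2 CPM. Of the markers of other neuron types, 3 of 5 ventral ones (*En1*, *Gata2* and *Foxp1*) and 1 of 5 ganglion ones (*P2rx3*) were lower at E14.5, and without batch 1 none was in edgeR. In edgeR 0 of 2 crest and glia markers, 0 of 9 cell cycle exit genes, 0 of 8 mesenchyme and muscle markers, 0 of 4 erythroid, 0 of 3 endothelial and immune and 0 of 1 epithelial markers passed in either direction.

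Among all genes with the same sign on both platforms and a mean of at least 20 CPM, the largest increases were of *Grp*, *Grm5*, *Ptprt*, *Npy1r*, *Shtn1*, *Fut9*, *Nyap2*, *Mpped1*, *Necab1* and *AI593442*. *Grm5*, a metabotropic glutamate receptor, was at 1.30 CPM on 10× (2 UMIs) and 1.34, 11.6 and 3.13 CPM in the batches at E12.5, and at 90.7, 282.8 and 186.5 at E14.5, and rose by 5.35 (SE 0.44, adjusted p = 0.0227, edgeR). *Npy1r*, a receptor of neuropeptide Y, rose by 4.92, from 2 to 11 UMIs on 10×. The largest decreases were of *Dbx1*, *Pbk*, *Spc25*, *Ccnb1*, *Cenpe*, *Ube2c*, *Cdk1*, *Top2a*, *Gsx1* and *Lhx9*, of which 7 are genes of cell division. This order depended on batch 1. Without it *Cdk1* went from -7.79 to -0.95 (adjusted p = 0.448, edgeR), *Top2a* to -2.41 and *Lhx9* to -4.18, and none of the 3 passed, while *Dbx1* fell under the filter on low counts. *Ccnb1* went from -9.31 to -3.91, *Spc25* from -10.7 to -5.62 and *Pbk* from -13.0 to -8.59, and these 3 passed, as did *Cenpe*, *Ube2c* and *Gsx1*. With 1 sum per batch *Cenpe* and *Gsx1* passed, and of the others none that met the filter did in edgeR. *Gsx1*, a factor of dorsal progenitors, was at 50.6 CPM on 10× and 25.1, 35.9 and 0 CPM in the batches at E12.5, and at 3.13, 0.202 and 0 at E14.5, so that batches 5 and 4 were both at 0. *Dbx1* came from batch 1, at 252.02 CPM against 0 in batches 2 and 5 and 1.95 CPM on 10×.

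**Figure D5:**
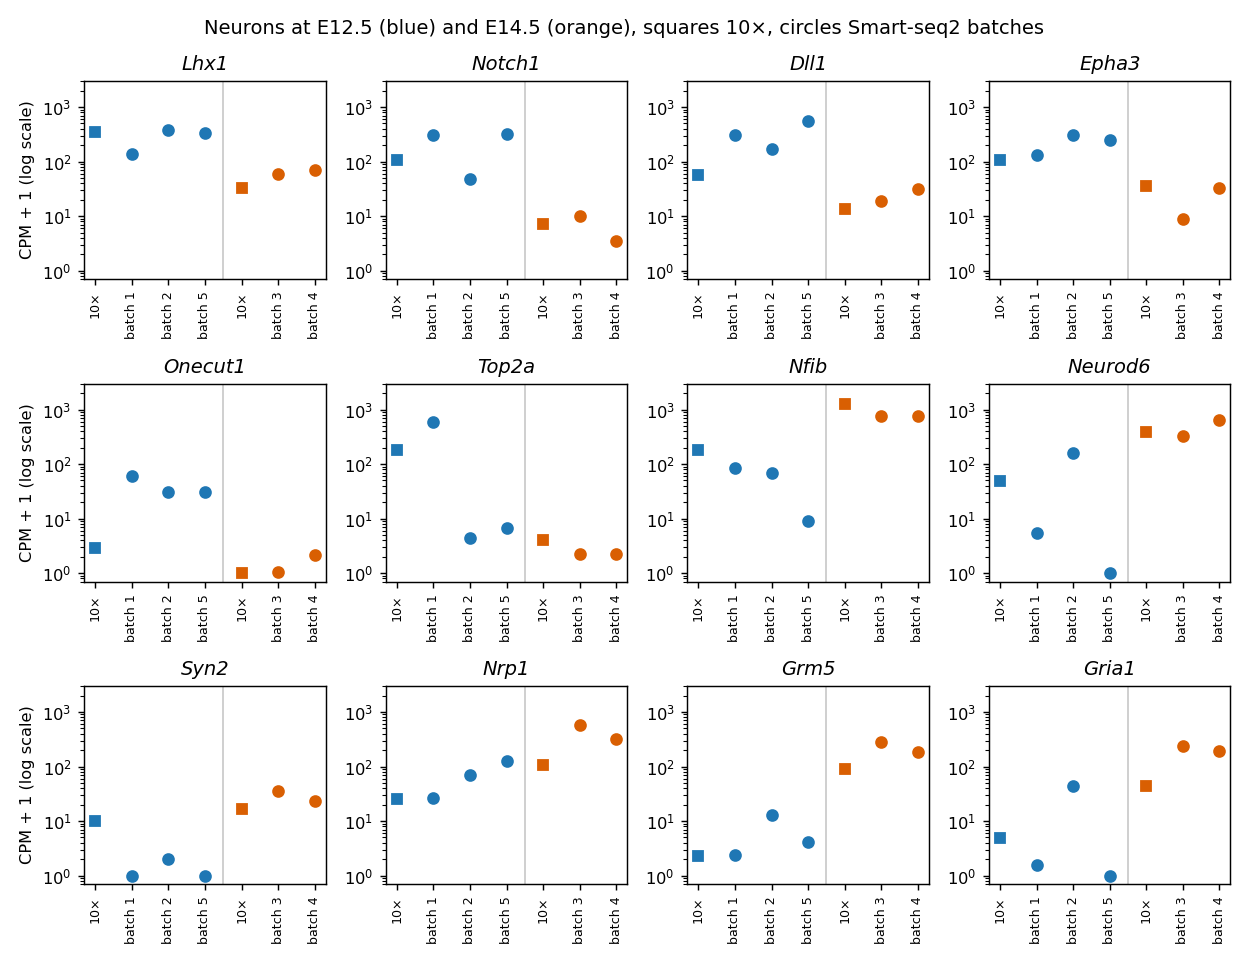
Levels (CPM + 1, log scale) of 12 genes in neurons of each 10× library (squares) and Smart-seq2 batch (circles) at E12.5 (blue) and E14.5 (orange). Lhx1, Notch1, Dll1 and Onecut1 lie lower at E14.5 and Nfib, Neurod6, Syn2 and Grm5 higher, while Top2a is high only in the E12.5 10× library and batch 1.

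Muscle progenitors of the same pools were used to ask whether the day effect was shared. Of 13425 genes tested for the interaction, 0.961% differed, 38 with a more positive day effect in neurons (0.283%) and 91 with a more negative one (0.678%). Of the cell cycle list 10 of 23 had the more negative effect in neurons, and *Cdkn1c*, a cell cycle inhibitor, likewise. Without the E12.5 cells of batch 1 0 genes passed in edgeR, the 1 tool run on those sums, with 1299 at an unadjusted p under 0.05. The calls against muscle progenitors therefore needed that batch. Leaving it out took the E12.5 Smart-seq2 neurons from 99 to 66 cells, but the muscle progenitors only from 44 to 43. The muscle progenitors thus hardly sampled batch 1, and an effect of that batch cannot be told apart from the class in this comparison.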

How the data were processed

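The material was 2934 cells of 10× libraries and 982 of Smart-seq2 plates from 3 embryonic days. Neurons at E12.5 were 412 of 1017 cells on 10× and 99 of 314 on Smart-seq2, 511 in all, and those at E14.5 were 98 and 123. The authors deposited UMI counts per gene from Cell Ranger for 10×, and for Smart-seq2 they deposited expected counts from kallisto 0.44.0 and tximport, with mm10 as the build. The bulk table was not used. The tables held 17634 and 22894 genes, 15147 of them in both, and 0 columns could not be mapped. Totals on 10× ran from 407 to 14955 UMIs per cell. The precision of each level is limited by these depths.

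Cells were scored on 9 panels as described above, with the highest panel at 0.7 or more giving the class. The panels, members and gene lists were chosen with earlier results of these data known. Some genes of the lists are not reported here and were left out of list counts and sums. For each class, platform and day the counts of its cells were added up, with expected counts rounded. Sums were tested in edgeR 4.0.16 (R 4.3.3) with TMM, filterByExpr and the quasi-likelihood test. The day fit had 4 sums with platform as a covariate, and the interaction fit had 8 sums with pool, class and class by day. edgeR's adjusted estimate of the spread was adopted in place of its default after simulated data showed calls among unchanged genes and after the calls of both on the real data had been seen, and 4-fold changes were often missed on simulated data. DESeq2 1.42.0, RLE factors, no filter, other score limits, sums per batch and sums without batch 1 were alternatives. The last, the 30-neuron batch limit, the default estimate, a class-by-platform term and the 10 CPM split were added after seeing the data. Named genes were every list member, the 20 largest ratios over other cells with at least 50 counts on each platform, the 10 largest day changes each way with the same sign on both platforms and a mean of at least 20 CPM, and the 10 largest split ratios each way with at least 20 counts. Python 3.11.15 was used for scores and levels (pandas 2.3.3, numpy 2.4.6, scipy 1.17.1). Levels use 1 CPM added before log2, and where no count was found, 3 counts over the group set the upper limit.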

Additional observations from a re-analysis of the deposited data

Results flagged for a closer look

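The day effect differed between neurons and muscle progenitors of the same pools for 20 named genes, and 8 of these had counts in all 8 sums. Values are differences of log2 day effects, neurons minus muscle progenitors, from edgeR. Cell division genes were more negative in neurons. *Top2a* was at -8.85 (SE 0.743, adjusted p = 0.0126), *Spc25* at -11.6 (SE 1.39, adjusted p = 0.0273), *Cdc20* at -6.45 (SE 0.95, adjusted p = 0.033) and *Rrm2* at -4.48 (SE 0.475, adjusted p = 0.0217). The inhibitor *Cdkn1c* was at -3.41 (SE 0.461, adjusted p = 0.0273). More positive in neurons were *Ptprt* at 7.72 (SE 1.18, adjusted p = 0.0362) and *Sv2a* at 6.69 (SE 1.17, adjusted p = 0.0488). *Hoxb6* was at 4.28 (SE 0.827, adjusted p = 0.0493). The 10× muscle progenitors at E12.5 were 37 cells with 94803 UMIs on the genes in both tables, so low levels there rest on few UMIs. From E12.5 to E14.5 on 10×, *Ptprt* went from 10.5 to 2.42 CPM in muscle progenitors and from 2.72 to 26.8 in neurons. In the same order *Sv2a* went from 10.5 to 0.807 CPM and from 60.5 to 66.9, and *Hoxb6* from 21.1 to 0.807 and from 318.2 to 401.4. Of 43 synapse and channel genes 1 was more positive, and of 31 cytoskeleton and vesicle genes and 36 guidance genes none in edgeR. *Top2a*, *Cdc20* and *Spc25* each rest on 1 UMI in the E14.5 neurons of 10×. Without the E12.5 cells of batch 1 none of these passed in edgeR, and *Top2a* was at -5.41 and *Ptprt* at 6.26. That batch held many neurons but hardly any muscle progenitors, so batch and class cannot be told apart in it.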

How the results depend on the processing

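By day, edgeR called 2.32% of genes higher and 2.86% lower at E14.5. The shares were 1.18% and 0.711% with 1 sum per batch, 0.733% and 1.21% at a neuron score of at least 1.0, 0.038% and 0.0076% with batches of at least 30 neurons, and 0.772% and 0.659% without batch 1. DESeq2 called 1.86% lower, and edgeR's default estimate of the spread called 2.11% higher and 2.77% lower. Of 71 named genes called by day, 1 kept the call with batches of at least 30 neurons, 31 per batch, 37 without batch 1, 50 at a score of at least 1.0, 62 in DESeq2 and 62 to 71 under the others. The interaction shares of 0.283% more positive and 0.678% more negative were 0.842% and 1.54% in DESeq2, 0.909% and 1.61% with the default estimate, 5.07% and 5.53% with a class-by-platform term, and 0 and 0 without batch 1. The median of all genes in the interaction was -0.18 in edgeR and 0.06 in DESeq2. The 10× share of neurons was 37.04% after thinning, and *Pax2* against *Tlx3* alone put 25.5% and 16.3% of 10× neurons on the inhibitory and excitatory sides. Day values that turned were *Atoh1* at 2.86, *Grin3a* at -0.86, *Msx1* at 0.97, *Olig3* at 0.23 and *Pdyn* at -1.20 on 10× alone, against -4.88, 3.23, -2.51, -4.45 and 5.63 on Smart-seq2 alone, and *Aurka* at 0.30 and *Mcm3* at 0.38 without batch 1. Log2 ratios of the split that turned were *S100a10* at 0.59, *Sncg* at 1.44 and 0.18, *Nhp2* at 0.038 and 0.94, *Slc6a5* at -0.068, and *Slc17a6* at -8.20, -2.15 and -2.15. The cause of these changes was not tested. With 1 sum per platform and day, 1 platform alone gave values with no test, and the Smart-seq2 batches were not tested by themselves. No paired analysis was possible because the labels number no replicates that pair pools across days. Smart-seq2 batches were nested in the day, so batch and day cannot be told apart on that platform, and at E14.5 the 10× sum resolves nothing under 9.39 CPM.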

Other observations

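Hox genes of trunk levels were found in most neurons. *Hoxb8* had a UMI in 75.97% and *Hoxb9* in 75.5% of the neurons on 10×, against 11.6% and 13.1% of the other E12.5 cells, whose median depth was 1783 UMIs against 3074.5. The endothelial gene *Pecam1* was at 249.7 CPM in Smart-seq2 neurons and 10.4 CPM on 10×, while *Cdh5*, another endothelial gene, was at 0 on both. Both sets of genes were picked out after their values were seen.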
